A study of Mus musculus with 6 samples.

Results

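Amino acid transporters of the solute carrier superfamily were examined in the lens of newborn mice with a conditional deletion of Celf1, which encodes an RNA-binding protein that controls splicing, stability and translation of target mRNAs. The genes were taken by symbol, with earlier results of these data known. They were every entry of the families Slc1, Slc3, Slc6, Slc7, Slc36, Slc38 and Slc43 other than antisense entries and Slc7a11. This gave 44 of the 13931 genes in the expression table, with 7 from Slc1, 2 from Slc3, 9 from Slc6, 10 from Slc7, 2 from Slc36, 11 from Slc38 and 3 from Slc43. A few entries belong to these families without being amino acid carriers themselves, namely the dopamine transporter Slc6a3, the creatine transporter Slc6a8, the purine nucleobase transporter Slc43a3 and the heavy chains Slc3a1 and Slc3a2, which bring light chains to the membrane.

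RNA-sequencing was performed on 3 Control and 3 Celf1cKO libraries, each from a pooled pair of whole lenses at P0, from mice of mixed C57BL/6J and FVB background. Celf1cKO mice carried a germline knockout allele, Celf1lacZKI, and a Celf1flox allele whose exon 5 is removed by Cre from Pax6GFPCre, which acts from the lens placode onwards. By the labels, Control mice were Celf1lacZKI/+ and so shared the germline allele with Celf1cKO, whereas the methods of the study say that, unless stated otherwise, controls were Celf1flox mice lacking Cre. The Control genotype was therefore not settled. Levels are given as log2 CPM, the log2 of the read count scaled to the size of the library. A gene was called elevated or reduced where limma gave an adjusted p-value under 0.05, the size of the log2 fold-change exceeded 0.58, and its average level exceeded 1 log2 CPM.

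The lens has no blood vessels of its own, so its cells take up amino acids from the surrounding humours through carriers. These feed the synthesis of crystallins and of glutathione, the main antioxidant of the lens. Uptake relies on sodium-coupled carriers (Slc1, Slc6 and Slc38), on exchangers built from a heavy and a light chain (Slc3 with Slc7), on facilitators (Slc43) and on carriers that also sit on lysosomes, some of them proton-coupled (Slc36). Amino acids inside the cell are sensed by the kinase complex mTORC1 at the lysosome, and their shortage activates the kinase GCN2 and the transcription factor ATF4.

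The table held between 40694454 and 44387151 reads per library, and 3 reads corresponded to between 0.0609 and 0.0807 CPM. Celf1 itself was at 9.95, 9.94 and 9.34 log2 CPM in Control libraries 1, 2 and 3 and at 8.93, 7.66 and 7.83 in Celf1cKO libraries 1, 2 and 3, a log2 fold-change of -1.60 (SE 0.335, adjusted p = 0.0269). Within its group Celf1 was highest in Celf1cKO library 1, which stood apart, being the nearest to the Control libraries for many of the genes described here. Values without it are given for the transporters whose call it changes. The fiber markers, of which 10 of 11 were in the table, summed to between 295711 and 339638 CPM in Control and between 239881 and 252195 CPM in Celf1cKO libraries. The 6 lens epithelium markers summed to between 535 and 557 CPM in Control and to 456, 170 and 357 CPM in Celf1cKO libraries 1, 2 and 3. In bulk tissue, fewer cells of a type and less RNA per cell cannot be told apart.

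Of the 44 genes, 28 lay above the expression cut-off and 16 below it. In control lenses the light chain Slc7a5 (LAT1, an exchanger of large neutral amino acids) was the most abundant per length, at 225 ± 41.2 CPM per kb of exon (SD, n = 3). The heavy chain Slc3a2 (CD98hc, 4F2hc) followed at 108 ± 9.75 CPM per kb. These levels did not overlap, since the lowest Control library had 194 CPM per kb for Slc7a5 and the highest had 114 CPM per kb for Slc3a2. The cationic amino acid transporter Slc7a2 (CAT2) had 48.2 ± 3.79 CPM per kb and the light chain Slc7a8 (LAT2) had 39.7 ± 1.58 CPM per kb. Next came the system A transporter Slc38a2 (SNAT2) at 24.8 ± 3.26, Slc38a10 at 17.7 ± 0.846, the system N transporter Slc38a3 (SNAT3) at 15.3 ± 0.972 and the light chain Slc7a6 (y+LAT2) at 14.5 ± 1.02 CPM per kb. The last pair in this order did not differ beyond their spread. Slc7a5 and Slc3a2 together dominated the summed level of the 44 genes per length, with Slc7a5 alone holding between 37.3% and 43.6% of it in Control and between 37.2% and 39.4% in Celf1cKO libraries.

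**Figure D1:**
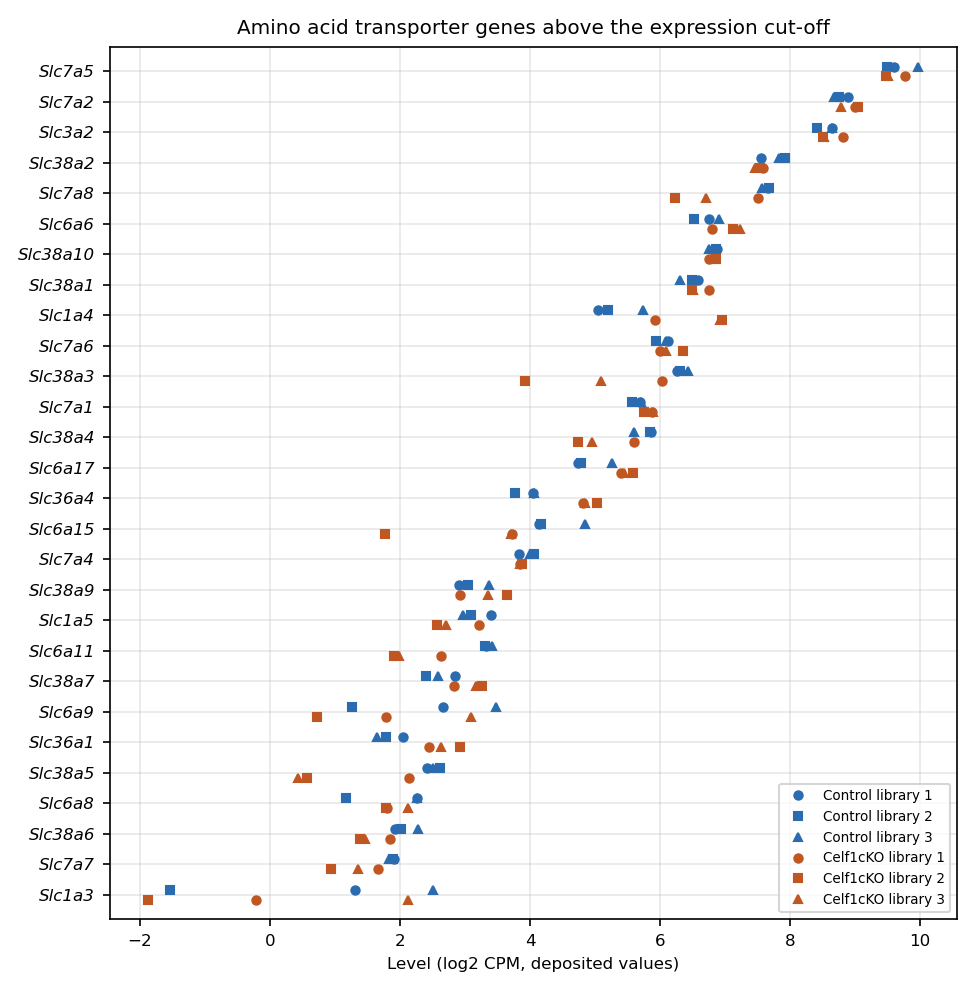
Level of the 28 amino acid transporter genes above the expression cut-off in each library, in log2 CPM (horizontal axis), with Control libraries in blue and Celf1cKO libraries in orange and library numbers by marker shape. Slc7a5 is highest in every library by this scale, the orange points of Slc36a4, Slc36a1 and Slc1a4 lie to the right of the blue ones, and the orange points of Slc6a11 lie to the left.

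In Celf1cKO lenses 4 of the 28 genes above the cut-off were called (14.3%), 3 elevated and 1 reduced. Among all 10640 genes above the cut-off the share called was 9.68%, with 6.24% elevated and 3.44% reduced. The elevated genes were both members of Slc36 in the table, Slc36a4 and Slc36a1, and the neutral amino acid exchanger Slc1a4. The reduced gene was Slc6a11, a transporter of the neurotransmitter GABA. At the adjusted p-value alone, 7 of 44 genes passed (15.9%), 5 higher and 2 lower, against 11.9% of all genes (7.85% higher and 4.03% lower), and 16 had an unadjusted p-value under 0.05 (7 higher and 9 lower), against 29.9% of all genes (16.3% higher and 13.7% lower). The 2 groups of libraries did not overlap for 17 of the 44 genes, 8 higher and 9 lower in Celf1cKO, against 36.5% of all genes (19.5% higher and 17% lower). The median log2 fold-change of the 44 genes was -0.11 and that of all genes was -0.04, and the summed level of the 44 genes lay between 2662 and 3045 CPM in Control and between 2648 and 2997 CPM in Celf1cKO libraries.

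The count of called genes depended on single libraries. It was 1 without Control library 1, 0 without Control library 2, 2 without Control library 3, 8 without Celf1cKO library 1, 1 without Celf1cKO library 2 and 0 without Celf1cKO library 3, against backgrounds of 5.6%, 0.0094%, 4.12%, 18%, 4.1% and 0.0094% of all genes above the cut-off. In the limma fits that called none of the 44, 10 and 12 had an unadjusted p-value under 0.05, without Control library 2 and without Celf1cKO library 3 respectively, against 24.5% and 21.1% of all genes.

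**Figure D2:**
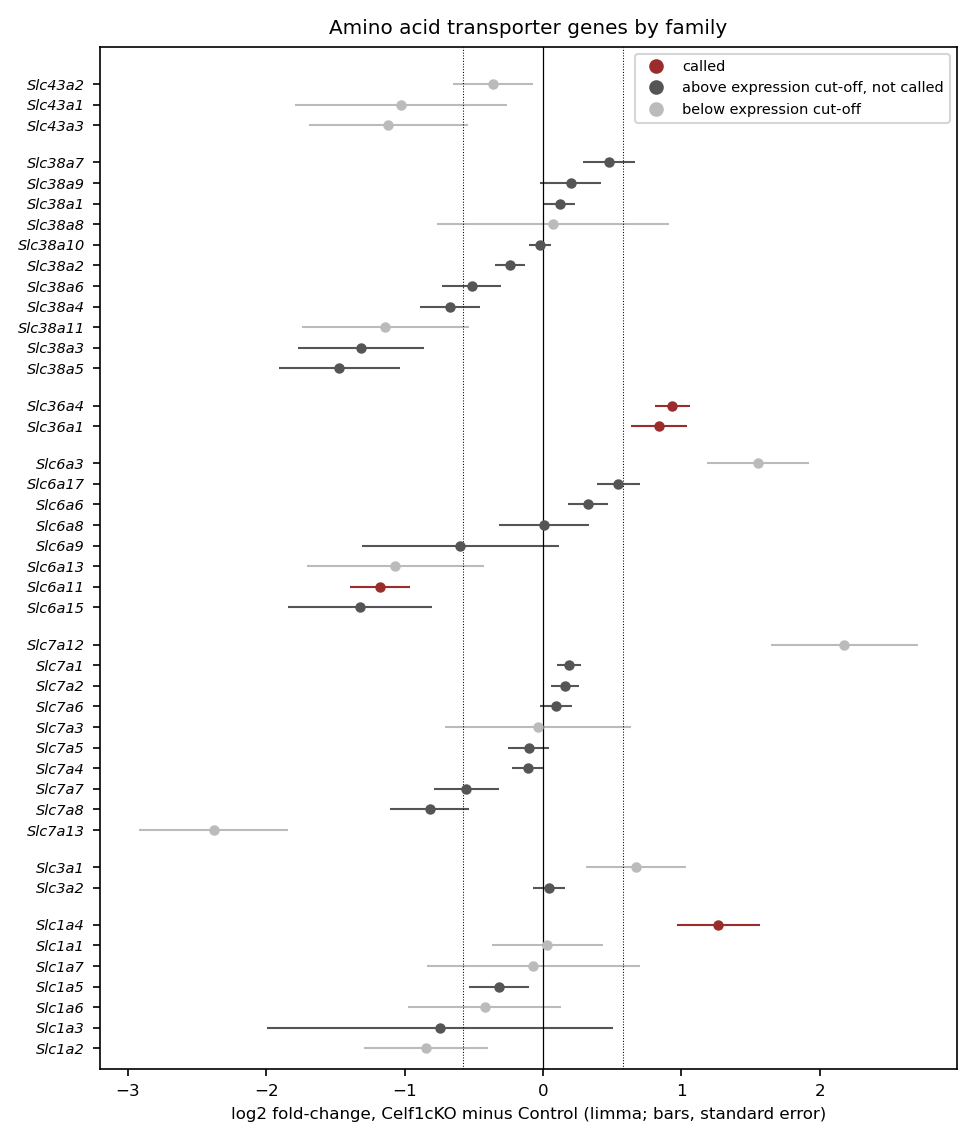
Log2 fold-change between Celf1cKO and Control (horizontal axis) for 43 of the 44 genes by family, with bars for the standard error from limma and dotted lines at the fold-change cut-off of 0.58 in either direction. The called genes, in red, are Slc36a4, Slc36a1, Slc1a4 and Slc6a11, and the genes in pale grey lie below the expression cut-off.

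Slc36a4 (PAT4, a high-affinity carrier of proline and tryptophan) was at 4.04, 3.77 and 4.07 log2 CPM in Control libraries 1, 2 and 3 and at 4.81, 5.03 and 4.84 in Celf1cKO libraries 1, 2 and 3. All Celf1cKO libraries were above all Control libraries, and Celf1cKO library 1 was with its group. The gene rose 1.91-fold, a log2 fold-change of 0.94 (SE 0.126, adjusted p = 0.0106), and was still called in 4 of the 6 fits that left out 1 library. Its adjusted p-value was 0.0512 without Control library 2 and 0.0691 without Celf1cKO library 3, and the log2 fold-change stayed between 0.84 and 0.99. With total-count scaling, the alternative that moved it most, the log2 fold-change was 1.16.

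Slc36a1 (PAT1, a proton-coupled carrier of small neutral amino acids on lysosomes and the plasma membrane) was at 2.04, 1.78 and 1.65 log2 CPM in Control and at 2.45, 2.92 and 2.64 in Celf1cKO libraries. The groups did not overlap, and Celf1cKO library 1 was the lowest of its group. The gene rose 1.79-fold, a log2 fold-change of 0.84 (SE 0.202, adjusted p = 0.0399). With 1 library left out the log2 fold-change lay between 0.72 and 0.95, and the gene passed only without Celf1cKO library 1 (adjusted p = 0.0242), with adjusted p-values between 0.0645 and 0.147 without each of the others.

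Slc1a4 (ASCT1, an exchanger of alanine, serine, cysteine and threonine) was at 5.05, 5.20 and 5.74 log2 CPM in Control libraries 1, 2 and 3. It was at 5.92, 6.95 and 6.92 log2 CPM in Celf1cKO libraries 1, 2 and 3. The groups did not overlap, but Celf1cKO library 1 lay near Control library 3. The gene rose 2.41-fold, a log2 fold-change of 1.27 (SE 0.300, adjusted p = 0.0383), and its level per length went from 10.5 ± 2.75 to 25.9 ± 9.05 CPM per kb (SD, n = 3 each). Without Celf1cKO library 1 the log2 fold-change was 1.60 (adjusted p = 0.00423). Without any other single library it lay between 1.09 and 1.47, with adjusted p-values between 0.061 and 0.137. The related exchanger Slc1a5 (ASCT2, a main carrier of glutamine in many cells) was at 3.39, 3.10 and 2.96 log2 CPM in Control and at 3.22, 2.57 and 2.71 in Celf1cKO libraries, and these overlapped (log2 fold-change -0.32, SE 0.215, adjusted p = 0.355).

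Slc6a11 (a sodium- and chloride-coupled GABA transporter that also takes up beta-alanine) was at 3.33, 3.31 and 3.41 log2 CPM in Control and at 2.63, 1.91 and 1.99 in Celf1cKO libraries. All Celf1cKO libraries lay below the Control libraries, whose SD was 0.0523 log2 units (n = 3). The log2 fold-change was -1.18 (SE 0.216, adjusted p = 0.0192), and the Control level was 2.26-fold that of Celf1cKO. Without Celf1cKO library 1 the log2 fold-change was -1.40 (adjusted p = 0.00321). Without any other single library it lay between -1.20 and -1.04 and no longer passed, with adjusted p-values between 0.0537 and 0.0930.

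**Figure D3:**
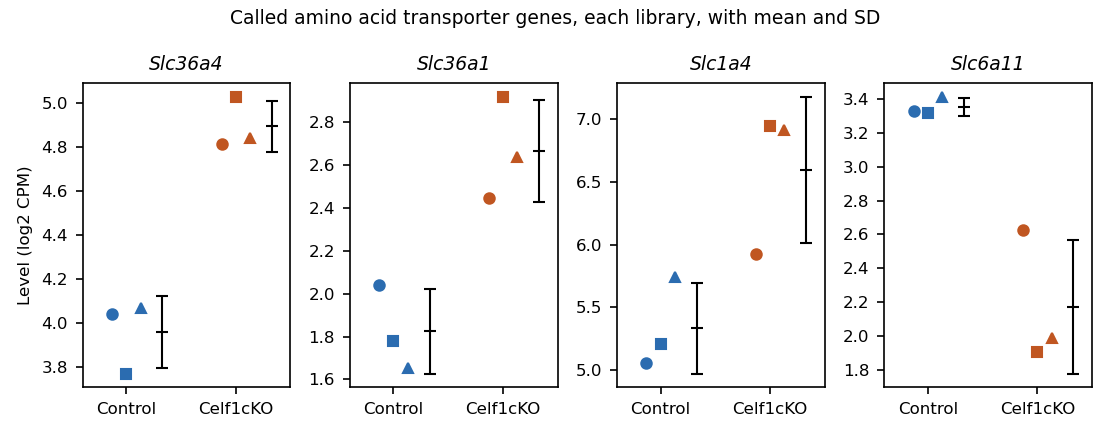
Level in log2 CPM (vertical axes, each on its own range) of the 4 called genes in each library, with marker shape giving the library number and black bars giving the mean and SD of 3 libraries. The groups are separate in each panel, and the circle of Celf1cKO library 1 is nearest to Control for Slc1a4, Slc36a1 and Slc6a11 and close to its group for Slc36a4.

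The called genes lie on chromosome 9 from 15709738 to 15743361 (Slc36a4, plus strand), on chromosome 11 from 55204350 to 55236330 (Slc36a1, plus strand), on chromosome 11 from 20302180 to 20332713 (Slc1a4, minus strand) and on chromosome 6 from 114131241 to 114249952 (Slc6a11, plus strand) of GRCm38. No exon of these 4 overlaps an exon of another gene, whereas 11 of the 44 have exons that overlap a gene on the opposite strand, and whether counting used the strand is not given in the sources used here. Their RefSeq promoters (GRCm38.p6, 250 bases before to 50 after the start, on the strand of the gene) are shown because these are the members that moved. The letters TGATGNAA of the ATF4 composite element and CACGTG, the core letters of the E-box that the lysosomal regulator TFEB can bind, were searched on both strands, and capitals mark a match.
Slc1a4, chr11:20332664-20332963, minus strand: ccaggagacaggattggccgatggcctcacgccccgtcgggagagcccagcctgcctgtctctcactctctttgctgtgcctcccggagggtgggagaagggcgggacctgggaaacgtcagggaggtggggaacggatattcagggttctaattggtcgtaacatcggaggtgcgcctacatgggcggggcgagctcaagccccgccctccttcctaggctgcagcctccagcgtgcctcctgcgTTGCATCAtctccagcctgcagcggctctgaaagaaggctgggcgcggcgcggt
Slc36a1, chr11:55204090-55204389, plus strand: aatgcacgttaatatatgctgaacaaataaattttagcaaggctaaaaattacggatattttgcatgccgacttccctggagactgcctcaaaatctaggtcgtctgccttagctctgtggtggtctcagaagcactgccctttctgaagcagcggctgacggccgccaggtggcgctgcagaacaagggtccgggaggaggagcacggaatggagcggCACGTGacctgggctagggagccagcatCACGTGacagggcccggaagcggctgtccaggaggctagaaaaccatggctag
Slc36a4, chr9:15709488-15709787, plus strand: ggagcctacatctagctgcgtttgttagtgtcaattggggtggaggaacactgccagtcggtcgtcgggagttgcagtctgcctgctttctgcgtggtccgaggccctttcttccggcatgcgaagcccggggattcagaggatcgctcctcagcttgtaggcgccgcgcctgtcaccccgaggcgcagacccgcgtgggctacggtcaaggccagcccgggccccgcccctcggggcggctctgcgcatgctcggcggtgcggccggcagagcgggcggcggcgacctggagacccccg
Slc6a11, chr6:114130991-114131290, plus strand: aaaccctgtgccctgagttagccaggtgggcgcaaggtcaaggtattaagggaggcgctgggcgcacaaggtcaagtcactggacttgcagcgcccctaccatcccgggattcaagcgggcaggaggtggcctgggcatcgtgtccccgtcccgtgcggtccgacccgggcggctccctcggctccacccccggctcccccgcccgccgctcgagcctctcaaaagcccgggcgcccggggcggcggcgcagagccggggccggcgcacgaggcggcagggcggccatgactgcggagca

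Slc1a4 held TTGCATCA, the reverse complement of a TGATGNAA match, beginning 4 bases before the start. Slc36a1 held CACGTG at 2 places, beginning 31 and 3 bases before the start, and Slc36a4 and Slc6a11 held neither motif in this window. Windows were found for 30 of the 44 genes, some with more than 1, giving 44 windows. TGATGNAA was in 3 of these 44 windows (of Slc1a4 and Slc7a7) and in 3.97% of all 32851 promoter windows, and CACGTG was in 7 of the 44 and in 7.15% of all. The letters are a description of the sequence and no binding was measured.

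The Slc38 family, whose system A and system N members carry glutamine, alanine and other small neutral amino acids with sodium, had 9 of 11 genes above the cut-off. None was called by limma, 5 had an unadjusted p-value under 0.05 (1 higher and 4 lower, against the 29.9% of all genes), and limma voom on the reads called 1, against 9.89% of all genes above the cut-off. Slc38a3 (SNAT3, system N) was at 6.26, 6.30 and 6.43 log2 CPM in Control and at 6.03, 3.93 and 5.09 in Celf1cKO libraries. Slc38a5 (SNAT5, system N) was at 2.42, 2.62 and 2.51 log2 CPM in Control and at 2.14, 0.57 and 0.43 in Celf1cKO libraries. For both genes the Celf1cKO libraries all lay under the Control libraries, but library 1 was far closer to Control than libraries 2 and 3 were. The log2 fold-change was -1.32 (SE 0.454, adjusted p = 0.102) for Slc38a3 and -1.47 (SE 0.440, adjusted p = 0.0711) for Slc38a5. Slc38a5 passed with limma voom (adjusted p = 0.0494).

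Slc38a4 (SNAT4, system A) was at 5.86, 5.85 and 5.60 log2 CPM in Control and at 5.60, 4.73 and 4.96 in Celf1cKO libraries. Library 1 of Celf1cKO reached the lowest Control library, and the log2 fold-change of -0.67 (SE 0.216) had an adjusted p-value of 0.0852, or 0.0468 with the replicate number as a block, at which the gene was called (against 12% of all genes above the cut-off with the block). Slc38a2, the most abundant member, had a log2 fold-change of -0.24 (SE 0.110, adjusted p = 0.195), with 7.55 to 7.93 log2 CPM in Control and 7.46 to 7.58 in Celf1cKO libraries. Slc38a1 (SNAT1) and Slc38a10 had log2 fold-changes of 0.12 and -0.02 (adjusted p = 0.5 and 0.867). The lysosomal arginine sensor Slc38a9 was at 2.91, 3.04 and 3.37 log2 CPM in Control and at 2.92, 3.64 and 3.36 in Celf1cKO libraries (log2 fold-change 0.20, SE 0.221, adjusted p = 0.58). The lysosomal glutamine and asparagine carrier Slc38a7 had a log2 fold-change of 0.48 (SE 0.189, adjusted p = 0.141). Slc38a6, Slc38a8 and Slc38a11 had log2 fold-changes of -0.52, 0.07 and -1.14, none of which passed, and the last pair lay below the expression cut-off.

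Without Celf1cKO library 1, 8 of the 28 genes above the expression cut-off were called, against 18% of all genes above it. These were the same 4 genes and Slc38a3 (log2 fold-change -1.82, adjusted p = 0.0103), Slc38a4 (-0.93, adjusted p = 0.00555), Slc38a5 (-2.02, adjusted p = 0.00264) and the light chain Slc7a8 (-1.17, adjusted p = 0.00417). In Celf1cKO library 1 itself the differences from the Control mean were -0.30 for Slc38a3, -0.17 for Slc38a4, -0.38 for Slc38a5 and -0.13 for Slc7a8.

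Markers of lens epithelium, vessels and mesenchyme moved with these genes across the Celf1cKO libraries. The lens epithelium cadherin Cdh1 was at 6.80, 6.91 and 7.08 log2 CPM in Control and at 6.79, 4.27 and 5.70 in Celf1cKO libraries. The 8 vessel markers, of the capillary net that surrounds the newborn lens, summed to between 101 and 126 CPM in Control and to 122, 23.5 and 58.2 CPM in Celf1cKO libraries 1, 2 and 3, and none of them was at 0. The 5 mesenchyme markers in the table, of 8 listed, summed to between 81.5 and 111 CPM in Control and to 64.9, 18.3 and 31.0 CPM in Celf1cKO libraries. Celf1cKO library 2 was thus the lowest of its group in all 3 marker lists and in Slc38a3, Slc38a4 and Slc7a8, as it was in Slc6a11, Slc6a15 and Slc7a11 described here. Slc38a5 was instead lowest in Celf1cKO library 3, at 0.43 log2 CPM against 0.57 in library 2. The share of all genes that were lowest in Celf1cKO library 2 is not given. The part of these cells in the result was not tested.

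**Figure D4:**
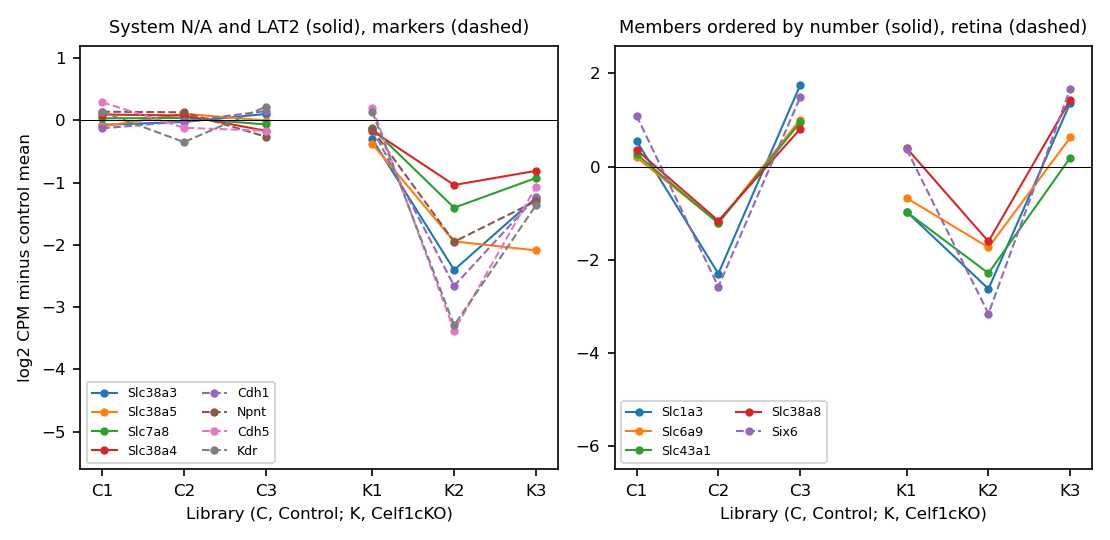
Log2 CPM minus the Control mean (vertical axis) in each library (C, Control; K, Celf1cKO), with transporter genes as solid and cell type markers as dashed lines, chosen after their values were seen. On the left Slc38a3, Slc38a5, Slc7a8 and Slc38a4 lie near 0 in Celf1cKO library 1 and below it in libraries 2 and 3 together with Cdh1, Npnt, Cdh5 and Kdr, and on the right Slc1a3, Slc6a9, Slc43a1 and Slc38a8 are lowest in library 2 and highest in library 3 of both groups together with the retina marker Six6.

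Of the heavy chains, only Slc3a2 was above the expression cut-off. It was at 8.65, 8.42 and 8.65 log2 CPM in Control and at 8.81, 8.52 and 8.52 in Celf1cKO libraries, so the groups overlapped (log2 fold-change 0.04, SE 0.116, 95% interval -0.23 to 0.31, adjusted p = 0.843). Its main light chain Slc7a5 was at 9.60, 9.49 and 9.98 log2 CPM in Control and at 9.77, 9.48 and 9.51 in Celf1cKO libraries, again with overlap (log2 fold-change -0.10, SE 0.149, 95% interval -0.45 to 0.25, adjusted p = 0.68). The ratio of Slc7a5 to Slc3a2 per length lay between 1.83 and 2.38 in Control and between 1.85 and 1.89 in Celf1cKO libraries. The other heavy chain, Slc3a1 (rBAT), had between 5 and 7 reads in Control and between 11 and 14 reads in Celf1cKO libraries, below the cut-off, with a log2 fold-change of 0.67 (SE 0.360, adjusted p = 0.252).

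Slc7a8, which exchanges small and large neutral amino acids, was at 7.67, 7.67 and 7.57 log2 CPM in Control and at 7.51, 6.23 and 6.71 in Celf1cKO libraries. The groups did not overlap, yet the log2 fold-change of -0.82 (SE 0.283) did not pass (adjusted p = 0.102), with Celf1cKO library 1 next to the Control libraries. Of the summed level per length of Slc7a5, Slc7a6, Slc7a7 and Slc7a8, Slc7a8 held 15.2%, 16.3% and 11.6% in Control and 12.6%, 6.65% and 8.97% in Celf1cKO libraries, so these shares overlapped. Slc7a5 held between 77.9% and 83.4% in Control and between 82.2% and 85.2% in Celf1cKO libraries. The light chains that exchange cationic for neutral amino acids, Slc7a6 and Slc7a7, had log2 fold-changes of 0.09 (SE 0.114, adjusted p = 0.615) and -0.55 (SE 0.237, adjusted p = 0.167). The cystine and glutamate exchanger Slc7a11, the Slc3a2 partner that supplies cystine for glutathione, was at 5.50, 5.32 and 5.29 log2 CPM in Control and at 4.94, 3.41 and 4.71 in Celf1cKO libraries. Its groups did not overlap and its log2 fold-change was -1.02 (SE 0.363, adjusted p = 0.11), or -1.31 without Celf1cKO library 1, where it was called (adjusted p = 0.0395).

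**Figure D5:**
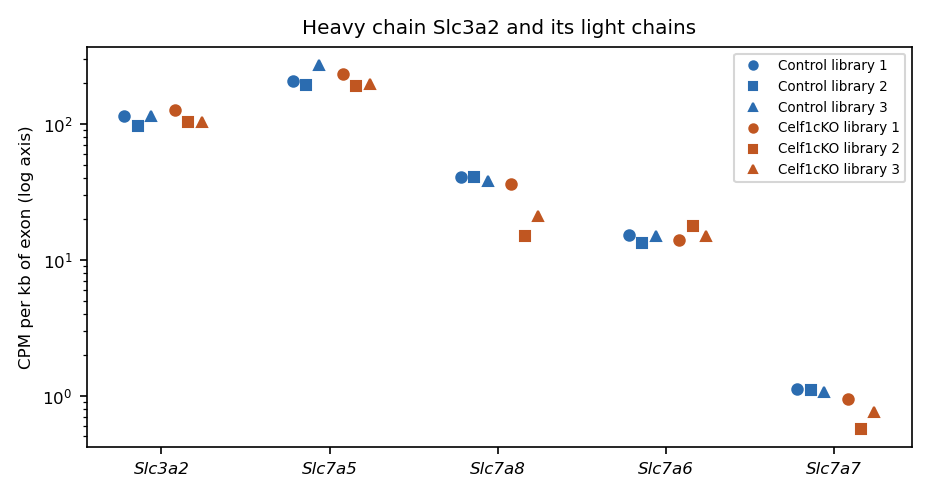
Level per length of the heavy chain Slc3a2 and its light chains in each library (vertical axis, CPM per kb of exon on a log axis). Slc7a5 lies between 192 and 272 CPM per kb in all 6 libraries, and Slc7a8 is lowest in Celf1cKO libraries 2 and 3.

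Of the 10 Slc7 genes, 7 were above the cut-off and none was called, although 4 had an unadjusted p-value under 0.05 in limma (1 higher and 3 lower, against the 29.9% of all genes), and limma voom called 0. The cationic transporters Slc7a1 (CAT1) and Slc7a2 had log2 fold-changes of 0.19 (SE 0.0877, adjusted p = 0.202) and 0.16 (SE 0.104, adjusted p = 0.339). Slc7a4, an orphan relative of these, had a log2 fold-change of -0.11 (SE 0.115, adjusted p = 0.552).

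A further 3 genes passed the adjusted p-value but lay below the expression cut-off. Slc7a12 (Asc-2, a small neutral amino acid carrier) had 1, 4 and 3 reads in Control and 10, 33 and 29 reads in Celf1cKO libraries. From the summed reads this was 7.34-fold higher in Celf1cKO (95% exact binomial interval 3.53 to 17.6, counting error only), and the fitted log2 fold-change was 2.18 (SE 0.532, adjusted p = 0.0417). Slc7a13 (AGT1, a carrier of aspartate, glutamate and cystine that pairs with Slc3a1) had 20, 17 and 25 reads in Control and 8, 2 and 1 reads in Celf1cKO libraries. Control was 6.91-fold above Celf1cKO (interval 3.61 to 14.6), with a fitted log2 fold-change of -2.38 (SE 0.541, adjusted p = 0.0341). The dopamine transporter Slc6a3 had 25, 20 and 11 reads in Control and 65, 81 and 60 reads in Celf1cKO libraries, 3.0-fold higher in Celf1cKO (interval 2.22 to 4.11), with a fitted log2 fold-change of 1.55 (SE 0.368, adjusted p = 0.0382). Read numbers of the groups did not overlap for any of the 3, and library 1 was the nearest to Control of its group in Slc7a12 and Slc7a13. Without Celf1cKO library 1 the log2 fold-change was 2.61 for Slc7a12 (adjusted p = 0.0171) and -2.92 for Slc7a13 (adjusted p = 0.00794), and neither passed without any other single library. Slc6a3 passed in none of the fits that left out 1 library (adjusted p-values between 0.0509 and 0.117), none of the 3 passed without a variance trend, and Slc7a12 also failed with log2(CPM + 1) and with limma voom (adjusted p = 0.0635 and 0.052).

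Within Slc6, 6 of 9 genes were above the cut-off. The taurine transporter Slc6a6 was the most abundant, at 12.6 ± 1.67 CPM per kb in Control and 15.8 ± 2.31 in Celf1cKO libraries (SD, n = 3 each), with a log2 fold-change of 0.33 (SE 0.142, adjusted p = 0.174). Slc6a17 (NTT4, a vesicular neutral amino acid carrier of neurons) was at 4.73, 4.78 and 5.27 log2 CPM in Control and at 5.39, 5.58 and 5.44 in Celf1cKO libraries. Its groups did not overlap, and its log2 fold-change of 0.54 (SE 0.155, adjusted p = 0.0624) was under the fold-change cut-off as well. Slc6a15 (B0AT2, a carrier of branched-chain amino acids and proline) was at 4.14, 4.17 and 4.85 log2 CPM in Control and at 3.72, 1.77 and 3.70 in Celf1cKO libraries, with a log2 fold-change of -1.32 (SE 0.518, adjusted p = 0.137). Here Celf1cKO library 2 alone was far from the rest. The creatine transporter Slc6a8 had a log2 fold-change of 0.01 (SE 0.325, adjusted p = 0.992). The GABA transporter Slc6a13, below the cut-off, had 37 to 121 reads in Control and 14 to 64 in Celf1cKO libraries (log2 fold-change -1.07, SE 0.638, adjusted p = 0.299).

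The glutamate transporters of Slc1 were low in the lens. Slc1a3 (GLAST, the glutamate transporter of Mueller glia) had the highest average of these, at 1.31, -1.54 and 2.51 log2 CPM in Control and at -0.21, -1.87 and 2.13 in Celf1cKO libraries, or 93, 11 and 222 against 35, 11 and 213 reads. Its spread followed the library number rather than the group, and the log2 fold-change of -0.74 (SE 1.25, adjusted p = 0.728) was smaller than its standard error. Slc1a1, Slc1a2, Slc1a6 and Slc1a7 were below the cut-off, had between 1 and 69 reads per library, and had log2 fold-changes between -0.85 and 0.03.

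The same order of libraries, with library 2 lowest and library 3 highest in both groups, was found for 6 of the 44 genes (13.6%), namely Slc1a3, Slc1a6, Slc6a9, Slc38a8, Slc43a1 and Slc7a1, and for 3.48% of all genes. The order was picked from values of these same genes, so the shares are a description and not a test. For Slc7a1 the libraries spanned only 0.144 log2 units in Control and 0.135 in Celf1cKO. The glycine transporter Slc6a9 (GlyT1) was at 2.66, 1.26 and 3.47 log2 CPM in Control and at 1.79, 0.72 and 3.09 in Celf1cKO libraries. Its log2 fold-change was -0.60 (SE 0.710, adjusted p = 0.612). The eye field and retinal factor Six6, picked once its values were known, was in the same order. It was at 2.01, -1.66 and 2.41 log2 CPM in Control and at 1.29, -2.24 and 2.59 in Celf1cKO libraries. The 6 retina markers in the table, of 8 listed, summed to 11.2, 1.53 and 25.9 CPM in Control and to 6.54, 4.40 and 18.2 CPM in Celf1cKO libraries 1, 2 and 3. These sums include Six6, and the order of the list without it is not given. The macrophage markers, given at the end, summed in the same order in both groups. The part of retina or of other cells in the levels of these transporters was not tested.

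The facilitators of Slc43 were all below the cut-off. Slc43a1 (LAT3), Slc43a2 (LAT4) and Slc43a3 had log2 fold-changes of -1.03, -0.36 and -1.12 (SE 0.767, 0.291 and 0.572), with 5 to 106 reads per library, and none had an unadjusted p-value under 0.05.

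Genes that act with these transporters were counted in 5 lists, which hold 100 genes of the table. The lists were chosen with earlier results of these data known, so their counts are a description and not a test. Of the 86 of these above the cut-off, 17 were called, 11 elevated and 6 reduced, against the background of 9.68% given above. The count was 0 without Control library 2 or Celf1cKO library 3, where 43 and 38 of the 100 had an unadjusted p-value under 0.05 (against 24.5% and 21.1% of all genes). It was 8 without Celf1cKO library 2 and 9 without Control library 3, where 4.1% and 4.12% of all genes above the cut-off were called. Scaling by the total count raised the median log2 fold-change of genes above the cut-off from 0.00 to 0.23, and the calls then became 24 elevated and 3 reduced (88.9% elevated against 64.7%), where 17.5% of all genes above the cut-off were called.

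The first list, of 11 other amino acid and peptide carriers, had 9 above the cut-off. Of these, 1 was elevated and 1 was reduced (22.2% called, against 9.68% of all genes above the cut-off). The lysosomal cystine exporter Ctns was at 3.17, 2.98 and 3.06 log2 CPM in Control and at 3.66, 4.29 and 4.14 in Celf1cKO libraries (log2 fold-change 0.96, SE 0.185, adjusted p = 0.0211). The proton-coupled peptide transporter Slc15a2 (PEPT2) was at 4.16, 4.43 and 5.08 log2 CPM in Control and at 3.27, 3.09 and 2.96 in Celf1cKO libraries (log2 fold-change -1.45, SE 0.235, adjusted p = 0.0147). Neither pair of groups overlapped. Without Control library 2 or Celf1cKO library 3 neither gene was called, and Ctns passed only without Celf1cKO library 1 among the fits that left out 1 library. With the replicate number as a block the peptide transporter Slc15a1 (PEPT1) was called too (log2 fold-change 0.74, adjusted p = 0.0417, against 0.217 without the block), giving 2 elevated genes and 1 reduced gene.

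Among 9 genes listed as partners or regulators of carriers, 8 were above the cut-off. Of these, 2 were elevated and 1 was reduced (37.5% called, against 9.68% of all genes above the cut-off). Arl6ip1 and Arl6ip5, membrane proteins of which Arl6ip5 restrains the glutamate carrier Slc1a1, had log2 fold-changes of 1.01 (SE 0.134, adjusted p = 0.0101) and 0.77 (SE 0.137, adjusted p = 0.018). Slc1a1 itself had between 17 and 44 reads per library and no detectable difference (log2 fold-change 0.03, SE 0.402, adjusted p = 0.966). The ubiquitin ligase Nedd4l, which removes several carriers from the membrane, was at 5.59, 5.81 and 5.59 log2 CPM in Control and at 5.10, 5.03 and 5.0 in Celf1cKO libraries (log2 fold-change -0.62, SE 0.0981, adjusted p = 0.014). With total-count scaling its log2 fold-change was -0.40, under the fold-change cut-off.

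Of the 35 genes of amino acid sensing by mTORC1, all in the table, 34 were above the cut-off. Of these, 4 were elevated and 3 were reduced (20.6% called, against 9.68% of all genes above the cut-off). The median log2 fold-change of the 35 was 0.28, and that of all genes was -0.04. Castor2, a relative of the arginine sensor, was at 4.17, 3.58 and 3.56 log2 CPM in Control and at 5.21, 5.70 and 5.65 in Celf1cKO libraries, a log2 fold-change of 1.75 (SE 0.207, adjusted p = 0.0094). Sesn3, of the sestrins that restrain mTORC1, rose by a log2 fold-change of 0.97 (SE 0.198, adjusted p = 0.0252), and Rragd, a GTPase that recruits mTORC1 to lysosomes, by 0.68 (SE 0.144, adjusted p = 0.0275). In the other direction, the sestrin Sesn1 had a log2 fold-change of -1.10 (SE 0.238, adjusted p = 0.0297), the GTPase Rragc -0.62 (SE 0.0847, adjusted p = 0.0107) and the mTORC1 subunit Rptor -0.59 (SE 0.141, adjusted p = 0.04). Sestrins and Rag GTPases thus each had a member called in either direction. Without a variance trend 2 of the 35 were called, where 3.96% of all genes above the cut-off were called. The count was 5, 0 and 2 without Control libraries 1, 2 and 3, and 10, 3 and 0 without Celf1cKO libraries 1, 2 and 3. The backgrounds were 5.6%, 0.0094%, 4.12%, 18%, 4.1% and 0.0094% of all genes above the cut-off, in that order. With total-count scaling 14 of the 35 were called, 13 elevated and 1 reduced, where 17.5% of all genes above the cut-off were called. Rragc and Rptor (log2 fold-changes -0.39 and -0.36) then no longer passed the fold-change cut-off. With the replicate block Wdr59, a subunit of the GATOR2 complex that acts upstream of mTORC1, was called as well (log2 fold-change 0.72, adjusted p = 0.0307, against 0.0585 without the block).

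Of 22 genes of the response to amino acid shortage, 19 were above the cut-off, and 4 were elevated and none was reduced by limma, with 9 higher and 2 lower at an unadjusted p-value under 0.05 (16.3% and 13.7% of all genes), and limma voom also called 4. The backgrounds were 9.68% for limma and 9.89% for limma voom. With the replicate number as a block, 7 were called, 6 elevated and 1 reduced, against 12% of all genes above the cut-off, the additions being Chac1, Ddit4 and Phgdh (adjusted p = 0.0471, 0.0214 and 0.0471 with the block and 0.121, 0.0864 and 0.0573 without it). The count was 6 with total-count scaling, 3 with median centring and with scaling without crystallin genes, and 1 without a variance trend. Of all genes above the cut-off, 17.5%, 9.32%, 8.98% and 3.96% were called in these settings, in that order. The count was 7 without Celf1cKO library 1, 3 without Control library 3, 2 without Control library 1 or Celf1cKO library 2, and 0 without Control library 2 or Celf1cKO library 3. Ddit3 (CHOP), a stress-induced transcription factor, was at 2.33, 2.37 and 2.29 log2 CPM in Control and at 4.02, 4.49 and 4.35 in Celf1cKO libraries, a log2 fold-change of 1.95 (SE 0.157, adjusted p = 0.00855). Psat1, an enzyme of serine synthesis, rose by 0.93 (SE 0.238, adjusted p = 0.0473), the ATF4-related factor Atf5 by 0.85 (SE 0.191, adjusted p = 0.0335) and Impact, an inhibitor of GCN2, by 0.79 (SE 0.131, adjusted p = 0.0154), all on the log2 scale. Atf4 was at 7.72, 7.83 and 7.88 log2 CPM in Control and at 8.07, 8.24 and 8.31 in Celf1cKO libraries. Its groups did not overlap, and its log2 fold-change of 0.39 (SE 0.0934, adjusted p = 0.0385) was under the fold-change cut-off. Asns, an ATF4 target that makes asparagine, had a log2 fold-change of 0.24 (SE 0.377, adjusted p = 0.706).

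Among 24 enzymes of amino acid metabolism, 17 were above the cut-off and 1 was called (5.88%, against 9.68% of all genes above the cut-off). Bckdhb, a subunit of the complex that breaks down branched-chain amino acids, was at 4.53, 4.36 and 5.05 log2 CPM in Control and at 3.80, 3.09 and 3.23 in Celf1cKO libraries. The groups did not overlap, and the log2 fold-change was -1.27 (SE 0.243, adjusted p = 0.0206).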

How the data were processed

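RNA-sequencing of 3 Control and 3 Celf1cKO libraries of P0 lenses was analysed. The authors prepared strand-specific paired-end libraries, aligned trimmed reads to GRCm38.p6 with STAR 2.7.8a, kept unique alignments, counted them per gene with featureCounts 2.0.0, removed genes of very low CPM and deposited log2 CPM values per library after edgeR normalization (version not given in the sources used here) with a prior count. The authors' average log2 CPM served as the expression cut-off. Columns with their own fold changes, F statistics, p-values and FDR were not used.

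Groups were tested on the deposited values with limma 3.58.1 (R 4.3.3) with a variance trend and no block, adjusting over all 13931 genes (Benjamini-Hochberg). Genes were called by the cut-offs of the study (adjusted p 0.05, log2 fold-change 0.58, average log2 CPM 1), and 10640 genes passed the last. An exact permutation test of 3 against 3 libraries cannot go below p = 0.1 and was not used. Whole reads were recovered from the spacing of the values (100% within 0.05 of a whole number) and used for depth, ratios of low genes and limma voom. Intervals cover counting error only. Levels per kb used merged exon lengths of GENCODE M21 (GRCm38), which held 13928 of the gene identifiers. The fit was tested on simulated counts, and plots were made in Python 3.11.15 with matplotlib 3.10.9.

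The labels give both groups the replicate numbers 1, 2 and 3, and the study describes no pairing. The deviations of same-numbered libraries from their group means correlated at 0.26, 0.39 and 0.38 across genes. Values for differently numbered libraries are not given, so these do not settle whether the numbers pair the samples. The main fit therefore had no block, and the replicate block is given as an alternative.

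The members and gene lists were chosen with earlier results of these data known. Named were called members, members passing the adjusted p-value alone, the 8 most abundant per length, the heavy chains with their light chains, the most abundant member of each family, and the called genes of each list (the 3 largest rises and falls where over 6 were called). The members described with Celf1cKO library 1, the library order, Slc38a1, Slc38a5, Slc38a7, Slc38a9, Slc6a9, Slc6a15, Slc6a17, Slc15a1, Wdr59, Chac1, Ddit4, Phgdh, Atf4, Asns, Cdh1 and Six6 were picked once their values were known. Values of some single genes are not reported here.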

Additional observations from a re-analysis of the deposited data

How the results depend on the processing

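The number of amino acid transporter genes called was 4, against a background of 9.68% of all genes above the cut-off. It was 4 with log2(CPM + 1), with expressed genes only, with scaling without crystallin genes and with median centring (backgrounds 9.38%, 10.4%, 8.98% and 9.32%). It was 5 with limma voom (adding Slc38a5, background 9.89%) and 6 with total-count scaling (adding Slc6a17 and Slc38a7, background 17.5%). Without a variance trend it was 2, where Slc36a1 and Slc1a4 no longer passed and the background was 3.96%. With the replicate block it was 5 (background 12%), adding Slc38a4, and the block changed no other call among the 44 genes. With 1 library left out it ranged from 0 to 8. The number of listed pathway genes called was 17, with the same backgrounds. It was 22 with the replicate block, 6 without a variance trend, 27 with total-count scaling and from 0 to 24 with 1 library left out. The causes of these changes were not tested, other than that fits without a library hold fewer samples. With 1 library left out, both counts were largest without Celf1cKO library 1 and 0 without Control library 2 or Celf1cKO library 3.

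None of the 4 called transporter genes changed direction under any of the 14 alternatives. The log2 fold-changes given here that changed sign belonged to genes that did not pass. With total-count scaling, which shifted the median of expressed genes to 0.23, these were Slc1a7 (0.0899), Slc38a10 (0.20), Slc7a3 (0.18), Slc7a5 (0.12) and Slc7a4 (0.11). Slc1a7 was at 0.0412 with limma voom, and Slc6a8 was at -0.00896 with log2(CPM + 1), -0.0138 with scaling without crystallin genes and -0.0177 with median centring. With 1 library left out the log2 fold-change ranged from -0.29 to 0.32 for Slc1a1, from -0.99 to 0.49 for Slc1a7, from -0.75 to 0.0358 for Slc1a6, from -1.89 to 0.20 for Slc1a3, from -0.058 to 0.0918 for Slc3a2, from -0.61 to 0.91 for Slc38a8, from -0.36 to 0.19 for Slc6a8, from -0.00482 to 0.17 for Slc7a6, from -0.64 to 0.78 for Slc7a3 and from -0.20 to 0.0404 for Slc7a5. Of the other comparisons of a gene with its main value, 506 kept direction and side of the adjusted p-value, 14 passed it only under the alternative and 40 no longer passed it. Genes with a few reads per library, such as Slc7a12, Slc7a13 and Slc3a1, are limited by depth.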

Other observations

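The remaining marker lists gave these sums. The 6 pigment cell markers in the table, of 7 listed, summed to 10.1, 3.93 and 22.1 CPM in Control libraries 1, 2 and 3. In Celf1cKO libraries 1, 2 and 3 these summed to 7.08, 11.3 and 27.1 CPM, where library 2 was not the lowest. The 7 macrophage markers, of 9 listed, summed to 7.02, 4.71 and 12.2 CPM in Control libraries 1, 2 and 3. In Celf1cKO libraries 1, 2 and 3 these summed to 7.85, 7.33 and 10.3 CPM. Library 2 was lowest and library 3 highest in both groups, as for the retina markers. The 3 cornea and skin markers, of 10 listed, summed to between 4.50 and 5.33 CPM in Control and between 3.87 and 4.14 CPM in Celf1cKO libraries. The 1 red cell marker in the table, of 8 listed, was at 0.679, 0.431 and 1.35 CPM in Control libraries 1, 2 and 3. In Celf1cKO libraries 1, 2 and 3 it was at 0.489, 0.0412 and 0.406 CPM.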
